A study of Homo sapiens with 6 samples.

Results

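Interferon-induced genes and the IRF and STAT transcription factors that drive them were followed in MDA-MB-468 cells after knockdown of the long non-coding RNA NRAD1. Members were chosen by gene symbol in the annotation of the array platform. The symbols taken in were those of the IRF and STAT factors, the IFI, IFIT, IFITM, ISG, OAS, Schlafen (SLFN) and guanylate-binding protein (GBP) families, and single genes such as HERC5, HERC6, MX2, BST2, RSAD2, XAF1, SAMD9 and DDX60, and antisense names were left out. The rule used no measured value. It found 53 genes of the 14884 named on the array, represented by 59 of 53617 transcript clusters. A transcript cluster is the set of probes that the platform reads as 1 gene, and each gene was read from its brightest transcript cluster. STAT2, MX1 and OAS1 belong to the core of the pathway but had no named transcript cluster in the annotation used here and were not analysed.

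MDA-MB-468 is an established line of triple-negative breast cancer with a basal-like profile. The cells were transfected for 48 h with 15 nM of GapmeR#4, which targets NRAD1, or with 15 nM of a negative control GapmeR, and each group had 3 samples with 1 Affymetrix Human Gene 2.0 ST array per sample. GapmeRs are modified antisense oligonucleotides that lead RNase H to cleave the RNA they bind. Both groups received the transfection reagent TransIT-BrCa. The model is limited to 1 cell line, and effects of the GapmeR#4 oligonucleotide other than loss of NRAD1 cannot be told apart from the loss itself. The labels call the samples biological replicates without saying how the cultures were separated, so p-values cover only the spread among these arrays, which may be technical.

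Interferons are secreted when a cell detects foreign or misplaced nucleic acids. Type I interferons signal through JAK1 and TYK2 to a complex of STAT factors and IRF9, which binds the interferon-stimulated response element (ISRE) near the start of its target genes, whereas interferon gamma acts through JAK1 and JAK2, and its targets often carry the gamma-activated site (GAS). The targets code for antiviral effectors, for sensors that feed back on the pathway and for transcription factors of the IRF family. Many of them have a basal level in carcinoma cells, and several, such as SLFN11, have roles outside virus defence.

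The stretches before the start of 5 members with an ISRE core and 3 members without one are printed to show the element that the interferon-activated complex binds. HERC5 (chr4:88456959-88457118, plus strand), IFIT3 (chr10:89332369-89332528, plus strand) and SAMD9 (chr7:93117980-93118139, minus strand) are the members with a match that passed the test in the comparison below. ISG15 (chr1:1013337-1013496, plus strand) and IFIT1 (chr10:89392463-89392622, plus strand) also hold matches and did not pass. HERC6 (chr4:88378692-88378851, plus strand) and SAMD9L (chr7:93148386-93148545, minus strand) are the neighbouring relatives of HERC5 and SAMD9 without a match, and STAT5B (chr17:42276392-42276551, minus strand) passed the test without one. All are RefSeq sequences of GRCh38.p14, the 160 bases before the annotated start, written 5′ to 3′ on the gene's strand, with matches to the ISRE core, a pair of GAAA runs with NN (any 2 bases) between them, in capitals on either strand.
HERC5: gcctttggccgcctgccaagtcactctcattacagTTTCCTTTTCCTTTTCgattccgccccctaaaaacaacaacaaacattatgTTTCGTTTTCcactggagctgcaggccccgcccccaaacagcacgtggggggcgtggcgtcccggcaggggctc
IFIT3: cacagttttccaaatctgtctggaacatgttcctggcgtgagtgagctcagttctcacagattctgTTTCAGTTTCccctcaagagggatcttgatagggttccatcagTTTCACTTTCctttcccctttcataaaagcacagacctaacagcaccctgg
SAMD9: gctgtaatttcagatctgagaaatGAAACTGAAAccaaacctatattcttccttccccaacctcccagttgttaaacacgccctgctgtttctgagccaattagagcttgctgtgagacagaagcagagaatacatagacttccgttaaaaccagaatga
ISG15: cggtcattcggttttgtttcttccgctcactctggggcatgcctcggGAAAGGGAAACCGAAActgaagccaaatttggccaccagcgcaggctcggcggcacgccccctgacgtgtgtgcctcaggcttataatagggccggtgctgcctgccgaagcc
IFIT1: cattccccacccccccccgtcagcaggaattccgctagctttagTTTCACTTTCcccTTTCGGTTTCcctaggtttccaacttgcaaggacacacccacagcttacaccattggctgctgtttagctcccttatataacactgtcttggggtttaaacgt
HERC6: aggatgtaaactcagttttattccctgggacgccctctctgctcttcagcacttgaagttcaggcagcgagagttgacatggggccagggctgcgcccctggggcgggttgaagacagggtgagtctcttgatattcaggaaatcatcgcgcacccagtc
SAMD9L: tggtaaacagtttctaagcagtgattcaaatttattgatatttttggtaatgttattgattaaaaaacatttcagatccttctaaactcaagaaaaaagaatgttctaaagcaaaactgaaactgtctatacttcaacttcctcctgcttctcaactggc
STAT5B: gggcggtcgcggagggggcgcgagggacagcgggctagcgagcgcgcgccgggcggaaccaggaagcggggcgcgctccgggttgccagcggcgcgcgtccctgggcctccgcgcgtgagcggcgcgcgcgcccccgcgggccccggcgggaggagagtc

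HERC5 has 3 matches in this stretch, of which the first 2 overlap. IFIT3, ISG15 and IFIT1 have 2 each, those of ISG15 overlapping, and SAMD9 has 1. Of the 53 members, 39 had a RefSeq window from 250 bases before to 50 bases after the start, and 9 of these had more than 1 window. The ISRE core was found in at least 1 window of 19 of the 39 members (48.7%), against 3.57% of all 35116 windows, or 4.38% of 27305 genes. The GAS letters TTCNNNGAA were found for 10 of the 39 members (25.6%), against 7.66% of all windows, or 9.38% of genes. The rule takes in gene families known for induction by interferon, so the share of ISRE matches is a description of the members and no test was made of it. A match is a string of letters and was not tested for binding in these cells.

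The knockdown was read first. NRAD1 gave log2 signals of 2.96, 2.99 and 2.90 on the GapmeR#4 arrays, against 3.43, 3.46 and 4.01 on the control arrays. The groups did not overlap, and the difference of -0.69 ± 0.17 (SE) had an adjusted p of 0.0908 by limma and of 0.1 by the 2-sided exact permutation test, the smallest value that 3 against 3 arrays can give. Its mean signal of 3.29 lies below the median of the arrays, which was 3.96 to 4.01, and control GapmeR replicate 3 was the only array above it. The arrays correlated with Pearson's r of 0.988 to 0.989 within the GapmeR#4 group, 0.988 to 0.990 within the control group and 0.982 to 0.985 between the groups. The epithelial markers EPCAM, KRT18, KRT19 and CLDN7 had mean log2 signals of 11.5, 9.87, 9.61 and 9.15, and CLDN4 and KRT8 had 5.92 and 5.82. The basal markers EGFR, KRT5 and KRT14 had 10.4, 6.91 and 5.50. ESR1 (3.98) lay within the range of the array medians and PGR (2.56) below it, and ERBB2 was not measured. The leukocyte marker CD68 (6.89) and the endothelial marker KDR (7.22) were brighter than KRT8. The mean over 6 of 7 epithelial markers was 8.33 to 8.52 on the GapmeR#4 arrays, against 8.66 to 9.02 on the control arrays. All 6 changes were negative, with CLDN4 lower (-1.06, adjusted p = 0.0434, limma) and the other 5 not past the threshold. CLDN7 (-0.76) and KRT19 (-0.50) also had an unadjusted p under 0.05 (limma) and groups apart. The part of this shift in the results below was not tested. The mean over 3 of 8 basal-like markers was 7.38 to 7.56 on the GapmeR#4 arrays, against 7.70 to 7.79 on the control arrays, with changes of -0.36 for EGFR, -0.32 for KRT5 and -0.11 for KRT14, none past the threshold (limma). EGFR and KRT5 had an unadjusted p under 0.05, and the part of this shift in the results was not tested either. The mean over 6 of 13 leukocyte markers was 4.47 to 4.60 on the GapmeR#4 arrays, against 4.45 to 4.54 on the control arrays, that over 5 of 10 fibroblast and endothelial markers was 3.49 to 3.52 on the GapmeR#4 arrays, against 3.61 to 3.74 on the control arrays, and no gene of either list passed (limma). At an unadjusted p under 0.05, the leukocyte list held CD14, and the stromal list held KDR and PECAM1.

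The family did not move in 1 direction. At an adjusted p under 0.05 in limma's moderated model, with Benjamini-Hochberg adjustment over all transcript clusters, 2 members were lower after GapmeR#4 treatment (SLFN5 and STAT5B), 5 were higher (HERC5, SAMD9, IFITM2, IFIT3 and IFIT2) and 46 did not pass. The 7 called members are 13.2% of the 53, where 2.56% of all transcript clusters and 4.05% of all named genes were called. In the lower direction the background was 1.42% of transcript clusters and 2.56% of named genes, and in the higher direction 1.15% and 1.49%. At an unadjusted p under 0.05 there were 19 members (35.8%), where 16.8% of all transcript clusters and 23.1% of named genes had one. The 3 GapmeR#4 arrays lay wholly apart from the 3 control arrays for 22 members (41.5%), 8 lower and 14 higher, where this held for 23% of all transcript clusters (10.8% lower and 12.2% higher) and 32.3% of named genes (16.8% lower and 15.5% higher). The median change over the 53 members was -0.02 on the log2 scale, with 29 negative and 24 positive, beside 0.02 over all transcript clusters. The changes were spread more widely than those of named genes as a whole, with 11 of 53 members (20.8%) beyond 0.5 in either direction against 8.84% of named genes. Their median log2 signal was 5.74, against 5.16 for named genes, and all 7 called members were among the 42 above the median of the arrays. The calls of IFIT2, IFIT3 and STAT5B were lost whichever array was left out, and those of IFITM2 and SAMD9 in 5 of 6 such fits. In RNA from whole cultures, fewer cells that carry a transcript and less of it per cell cannot be told apart.

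**Figure D1:**
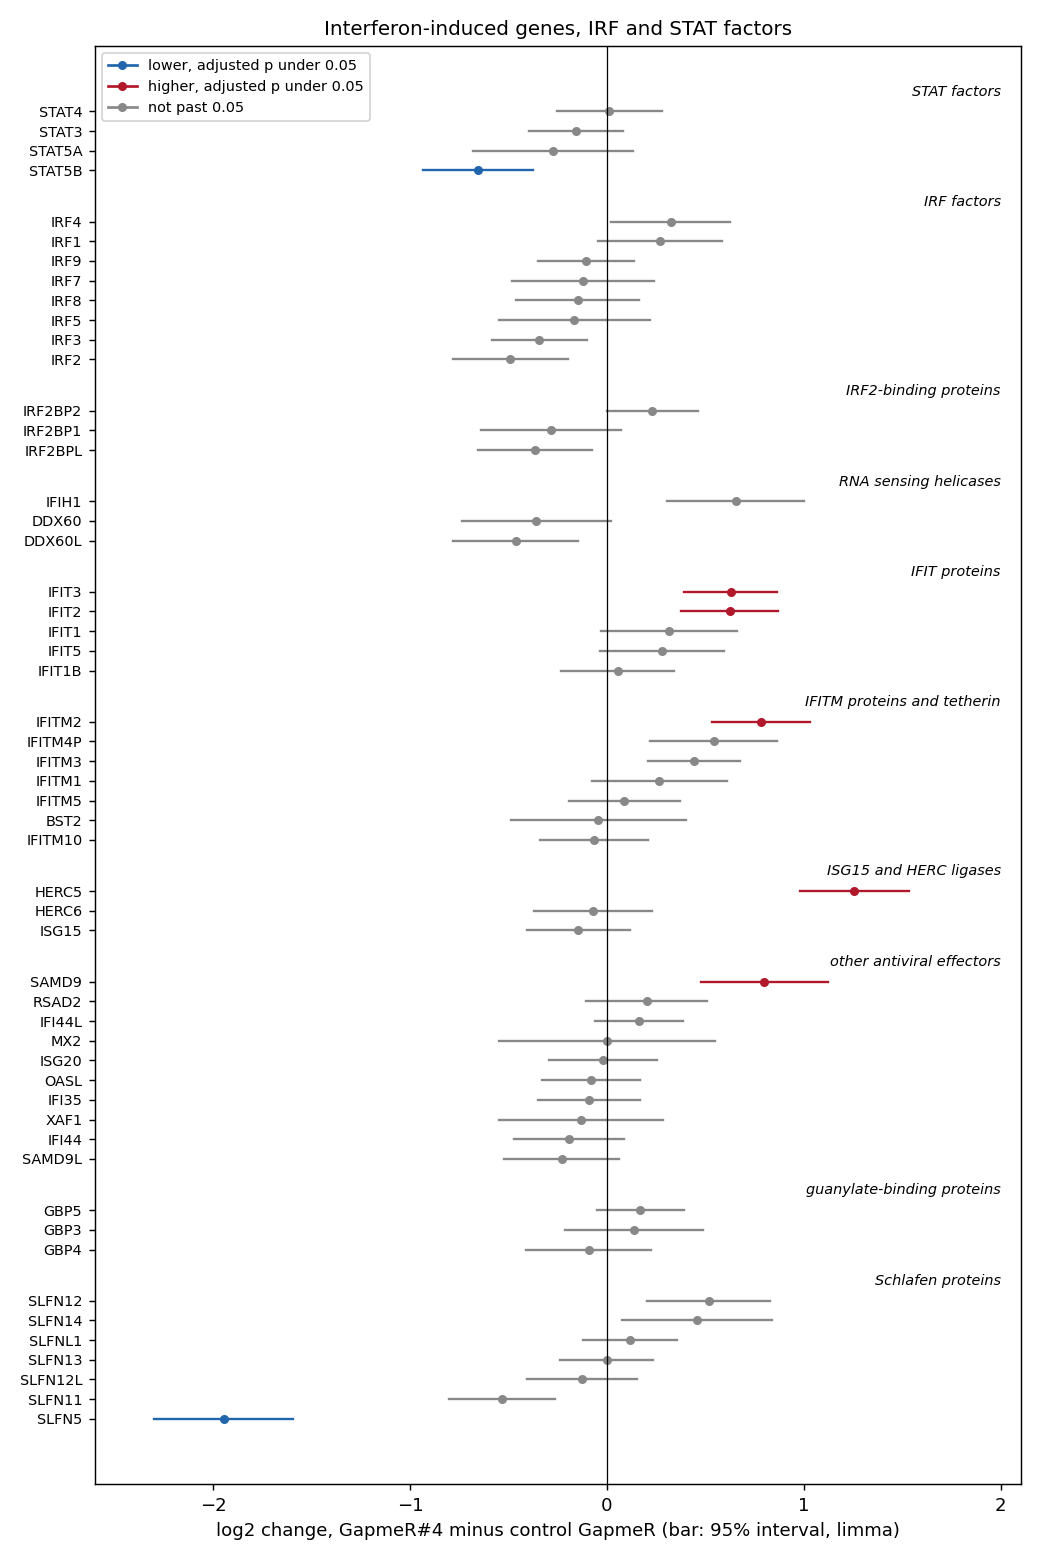
Log2 change (GapmeR#4 minus control GapmeR, 3 arrays each) of the 53 members with its 95% interval from limma, grouped by role and ordered within each group. SLFN5 lies alone near -1.95 and HERC5 near 1.26, and the 46 grey members lie between -0.53 and 0.65.

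The Schlafen genes held the largest decrease. SLFN5, which codes for a nuclear Schlafen protein, gave log2 signals of 5.63, 5.74 and 5.21 on the GapmeR#4 arrays, against 7.44, 7.52 and 7.45 on the control arrays. Every GapmeR#4 array lay more than 1 log2 unit below the lowest control array. The difference was -1.95 ± 0.15 (SE, n = 3 each), or 3.85-fold lower, with an adjusted p of 0.0071 in limma. SLFN5 was past the threshold in each of the 6 fits that left out 1 array. It was not past it by the methods' t-test after adjustment over all transcript clusters (adjusted p = 0.0663), which called none of the 53 members.

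SLFN5 starts a run of 6 Schlafen genes on chromosome 17 with no other protein-coding gene between them, and none of the other 5 passed the test. SLFN11, which blocks replication in cells with DNA damage, gave 6.66, 6.83 and 6.58 on the GapmeR#4 arrays, against 7.30, 7.10 and 7.27 on the control arrays. The groups did not overlap, but the difference of -0.53 ± 0.11 had an adjusted p of 0.0633. SLFN12, a partner of the phosphodiesterase PDE3A, had a change of the opposite sign, with 6.72, 6.52 and 6.47 on the GapmeR#4 arrays, against 5.84, 6.22 and 6.09 on the control arrays (0.52 ± 0.13, adjusted p = 0.105). SLFN13, a ribonuclease that cuts transfer RNA, averaged 7.09 ± 0.10 on the GapmeR#4 arrays and 7.09 ± 0.04 on the control arrays (SD, n = 3 each). The groups overlapped, and the 95% interval of the difference was -0.24 to 0.23. SLFN14 was dim on all arrays, with 2.98, 2.69 and 2.85 after GapmeR#4 treatment, against 2.70, 2.23 and 2.22 with the control GapmeR (0.46 ± 0.16, adjusted p = 0.214). SLFN12L was also below the median of the arrays, and SLFNL1, which lies on another chromosome, had a change of 0.12 that did not pass.

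**Figure D2:**
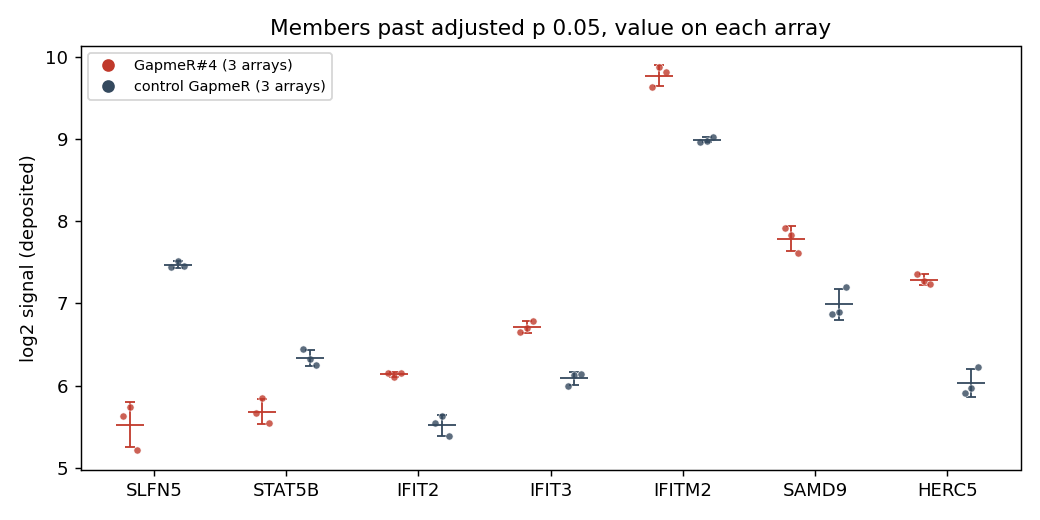
Deposited log2 signal of the 7 members with an adjusted p under 0.05, one point per array, GapmeR#4 left of control GapmeR within each gene, with the mean (horizontal bar) and SD (whiskers) of 3 arrays. No gene has overlapping groups, and the gap is widest for SLFN5.

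HERC5, the main ligase that attaches the ubiquitin-like protein ISG15 to its targets in human cells, had the largest increase. It gave log2 signals of 7.36, 7.27 and 7.23 on the GapmeR#4 arrays, against 5.91, 5.97 and 6.22 on the control arrays. The difference was 1.26 ± 0.12, or 2.39-fold higher (adjusted p = 0.00786), and it remained past the threshold in 5 of 6 fits that left out 1 array, not without control GapmeR replicate 2 (adjusted p = 0.0529). Its neighbour HERC6, the corresponding ligase of the mouse, averaged 6.33 ± 0.16 on the GapmeR#4 arrays and 6.40 ± 0.14 on the control arrays (SD, n = 3 each), and the 95% interval of its change was -0.37 to 0.23. ISG15 itself gave 5.36, 5.52 and 5.28 on the GapmeR#4 arrays, against 5.65, 5.49 and 5.46 on the control arrays. The groups overlapped for both of these genes, and the change of ISG15 was -0.15, with an interval of -0.41 to 0.12. The other enzymes of ISG15 conjugation, chosen here after their values were seen, did not pass. UBA7, the activating enzyme, changed by -0.46, UBE2L6, the conjugating enzyme, by -0.45, and USP18, the protease that removes ISG15, by -0.49. Their adjusted p-values were 0.0853, 0.114 and 0.113, and the unadjusted ones 0.0039, 0.0069 and 0.0068 (limma). For each of them all GapmeR#4 arrays lay below all control arrays, as held for 16.8% of named genes, and the sign was opposite to that of HERC5.

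Among the IFIT proteins, which bind viral RNA, 2 of 5 passed and the remaining 3 had positive changes that did not pass. Of all named genes, 1.49% were called higher. IFIT3 gave 6.65, 6.71 and 6.79 on the GapmeR#4 arrays, against 5.99, 6.13 and 6.14 on the control arrays (0.63 ± 0.10, 1.54-fold, adjusted p = 0.03). IFIT2 gave 6.16, 6.10 and 6.16 on the GapmeR#4 arrays, against 5.54, 5.63 and 5.38 on the control arrays (0.62 ± 0.10, 1.54-fold, adjusted p = 0.0335). All GapmeR#4 arrays were above all control arrays for both genes. IFIT1, which recognises viral RNA by its cap, gave 5.11, 4.93 and 4.75 on the GapmeR#4 arrays, against 4.40, 4.66 and 4.80 on the control arrays. Here the lowest GapmeR#4 array fell below the highest control array, and the change of 0.31 ± 0.15 did not pass (adjusted p = 0.343). IFIT5 changed by 0.28. IFIT1B changed by 0.05 at a mean signal of 2.64, below the median of the arrays. The 5 genes lie side by side on chromosome 10.

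The IFITM proteins, which hinder the entry of enveloped viruses, included 2 of the 5 members with the highest signals. IFITM2 gave 9.63, 9.87 and 9.82 on the GapmeR#4 arrays, against 8.97, 8.98 and 9.03 on the control arrays (0.78 ± 0.11, 1.72-fold, adjusted p = 0.0193). IFITM3 gave 6.30, 6.33 and 6.42 on the GapmeR#4 arrays, against 5.96, 5.82 and 5.95 on the control arrays (0.44 ± 0.10, adjusted p = 0.0719). IFITM1 gave 8.47, 8.70 and 8.60 on the GapmeR#4 arrays, against 8.59, 8.27 and 8.11 on the control arrays (0.27 ± 0.15, adjusted p = 0.429). The groups were apart for IFITM2 and IFITM3 and overlapped for IFITM1. The pseudogene IFITM4P gave 7.87, 8.26 and 8.30 on the GapmeR#4 arrays, against 7.65, 7.54 and 7.62 on the control arrays (0.54 ± 0.14, adjusted p = 0.0977). The members of this family are close in sequence, and how far their probes read each other's transcripts was not tested. IFITM5 and IFITM10 changed by 0.09 and -0.07. BST2 (tetherin), which holds budding virus at the cell surface, had 1 GapmeR#4 array at 4.77 above the other two at 4.24 and 4.02, with the control arrays at 4.36, 4.43 and 4.38, and its change was -0.04.

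SAMD9 and SAMD9L are neighbours on chromosome 7 that code for related inhibitors of virus replication and cell growth. SAMD9 gave 7.92, 7.84 and 7.61 on the GapmeR#4 arrays, against 6.87, 6.89 and 7.20 on the control arrays. The groups did not overlap, and the difference was 0.80 ± 0.14, or 1.74-fold higher (adjusted p = 0.0351). SAMD9L averaged 4.89 ± 0.20 on the GapmeR#4 arrays and 5.12 ± 0.04 on the control arrays (SD, n = 3 each), all GapmeR#4 arrays being below the control arrays, and its change of -0.23 did not pass (adjusted p = 0.418).

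The other antiviral effectors, many of them genes with strong induction by interferon elsewhere, did not pass. Of the 10 effectors SAMD9 was the only one called by limma and also the only one with an unadjusted p under 0.05. Of all named genes, 1.49% were called higher and 23.1% had such an unadjusted p. RSAD2 (viperin) changed by 0.20 with a 95% interval of -0.11 to 0.51, IFI44L by 0.16 (-0.06 to 0.38), IFI44 by -0.19 (-0.47 to 0.09), OASL by -0.08 (-0.33 to 0.17) and ISG20 by -0.02 (-0.30 to 0.26). The interval of each of these genes, and of XAF1 and MX2, lies below the 1.26 of HERC5. HERC5 had the largest increase of all members, so this comparison says little about the other genes. The intervals of XAF1 (-0.55 to 0.28) and MX2 (-0.55 to 0.55) were wider, and their control arrays were spread from 3.91 to 4.62 and from 3.16 to 4.09. IFI35 changed by -0.09. RSAD2, IFI44 and MX2 had mean signals below the median of the arrays.

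The STAT factors held 1 called gene of 4, in the lower direction, where 2.56% of named genes were called lower. STAT5B, which with STAT5A carries prolactin and growth hormone signals in mammary cells, gave 5.66, 5.85 and 5.54 on the GapmeR#4 arrays, against 6.44, 6.33 and 6.25 on the control arrays. The groups did not overlap, and the difference was -0.66 ± 0.12, or 1.57-fold lower (adjusted p = 0.0412). STAT5A, its neighbour, had 2 GapmeR#4 arrays at 5.42 and 5.47 and 1 at 4.88, with the control arrays at 5.41, 5.63 and 5.56, and its change of -0.27 ± 0.17 did not pass (adjusted p = 0.5). STAT3, the factor of interleukin-6 signals and the member with the highest signal, gave 9.75, 9.85 and 9.95 on the GapmeR#4 arrays, against 10.02, 10.06 and 9.94 on the control arrays. The groups met at 9.95 and 9.94, and the change was -0.16 ± 0.10. STAT4, a factor of lymphocytes, was dim at a mean of 2.59.

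None of the 8 IRF factors was called by limma or by the methods' t-test. An unadjusted p under 0.05 was found for 3 (IRF2, IRF3 and IRF4), beside 23.1% of named genes. IRF2 was called by limma with an intensity trend joined to a robust prior, and when the dimmer 50% of transcript clusters were left out. IRF2, which competes with IRF1 at its sites, gave 8.48, 8.61 and 8.23 on the GapmeR#4 arrays, against 8.85, 8.97 and 8.96 on the control arrays (-0.49 ± 0.12, adjusted p = 0.0977). IRF1, an activator that interferon gamma induces, gave 5.57, 5.62 and 5.74 on the GapmeR#4 arrays, against 5.49, 5.50 and 5.12 on the control arrays (0.27 ± 0.13, adjusted p = 0.374). In neither gene did the groups overlap, and the changes were of opposite sign. IRF3, the factor that TBK1 activates below the nucleic acid sensors, gave 6.36, 6.49 and 6.58 on the GapmeR#4 arrays, against 6.86, 6.82 and 6.78 on the control arrays (-0.34 ± 0.10, adjusted p = 0.146). IRF9, the DNA-binding part of the type I complex, gave 6.18, 6.23 and 6.22 on the GapmeR#4 arrays, against 6.40, 6.36 and 6.18 on the control arrays, and its 95% interval was -0.35 to 0.14. IRF7, which amplifies interferon alpha production, gave 4.67, 4.73 and 4.90 on the GapmeR#4 arrays, against 5.19, 4.80 and 4.68 on the control arrays. The IRF7 groups overlapped, and its change of -0.12 became 0.03 without control GapmeR replicate 1. IRF4, a factor of lymphoid cells, changed by 0.32 at a mean signal of 3.00, and IRF5 and IRF8 changed by -0.17 and -0.15.

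The IRF2-binding proteins are corepressors that the rule takes in by the start of their names, and 0 of 3 were called by limma. IRF2BPL gave 6.48, 6.63 and 6.49 on the GapmeR#4 arrays, against 7.05, 6.95 and 6.70 on the control arrays (-0.36 ± 0.12, adjusted p = 0.194). IRF2BP2 changed by 0.23 and IRF2BP1 by -0.28. At an unadjusted p under 0.05 (limma) there were 2, IRF2BPL and IRF2BP2, in opposite directions, beside 23.1% of named genes.

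The RNA sensing helicases had changes of both signs, and 0 of 3 passed by limma, where 2 had an unadjusted p under 0.05, as did 23.1% of named genes. IFIH1 (MDA5), the sensor of long double-stranded RNA, gave 7.62, 7.26 and 7.17 on the GapmeR#4 arrays, against 6.60, 6.64 and 6.86 on the control arrays. The groups did not overlap, and the difference of 0.65 ± 0.15 had an adjusted p of 0.0735. It passed in limma with an intensity trend joined to a robust prior, and not by the methods' t-test. DDX60L gave 6.18, 6.15 and 5.94 on the GapmeR#4 arrays, against 6.39, 6.49 and 6.77 on the control arrays (-0.46 ± 0.14, adjusted p = 0.139). Its neighbour DDX60, a helicase that acts with the RNA sensors, changed by -0.36 with overlapping groups.

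The 3 guanylate-binding proteins measured, GTPases that act on pathogens inside the cell, were not called, and none had an unadjusted p under 0.05. GBP1, GBP2 and GBP7, which lie between GBP3 and GBP4, were not measured. GBP3, one of the 5 members with the highest signals, gave 8.13, 7.87 and 8.05 on the GapmeR#4 arrays, against 7.90, 7.63 and 8.12 on the control arrays. The groups overlapped, and the 95% interval of the change was -0.21 to 0.49. GBP4 and GBP5 were below the median of the arrays.

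Related genes were set against each other in 8 pairs, which were chosen after their values were seen. The measure was the log2 ratio of the 2 genes on each array, which describes unequal change and not the level of either gene. HERC5 over HERC6 gave 0.91, 0.89 and 1.08 on the GapmeR#4 arrays, against -0.37, -0.40 and -0.34 on the control arrays, a difference of 1.33. SAMD9 over SAMD9L gave 2.86, 2.90 and 2.94 on the GapmeR#4 arrays, against 1.80, 1.76 and 2.05 on the control arrays, a difference of 1.03. For neither pair did the ratios of the groups overlap. For SAMD9 over SAMD9L this was fixed in advance, since SAMD9 lay wholly apart higher and SAMD9L wholly apart lower.

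The ratio of SLFN5 over SLFN13 was -1.37, -1.46 and -1.87 on the GapmeR#4 arrays, against 0.34, 0.39 and 0.41 on the control arrays, a difference of -1.95. SLFN11 over SLFN12 gave -0.05, 0.31 and 0.11 on the GapmeR#4 arrays, against 1.45, 0.88 and 1.18 on the control arrays, a difference of -1.05. Neither of these genes passed on its own. SLFN11 lay wholly apart lower and SLFN12 wholly apart higher, so their ratio had to lie apart. The permutation p of this pair and of SAMD9 over SAMD9L was thus fixed in advance and adds nothing to the single genes. IFITM2 over IFITM1 gave 1.17, 1.17 and 1.21 on the GapmeR#4 arrays, against 0.38, 0.71 and 0.91 on the control arrays, a difference of 0.52. The groups were apart for these 5 pairs, each with a 2-sided exact permutation p of 0.1, the smallest that the design allows. It was 0.16 after adjustment over the 8 pairs, which does not cover their choice after the values were seen. A ratio can also repeat the change of 1 gene, as SLFN5 over SLFN13 (-1.95) does for SLFN5 (-1.95). How often pairs of other genes lie apart was not tested. The groups overlapped for IFIT3 over IFIT1 (0.31), IFIT2 over IFIT1 (0.31) and STAT5B over STAT5A (-0.38), with exact permutation p-values of 0.2, 0.2 and 0.3.

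**Figure D3:**
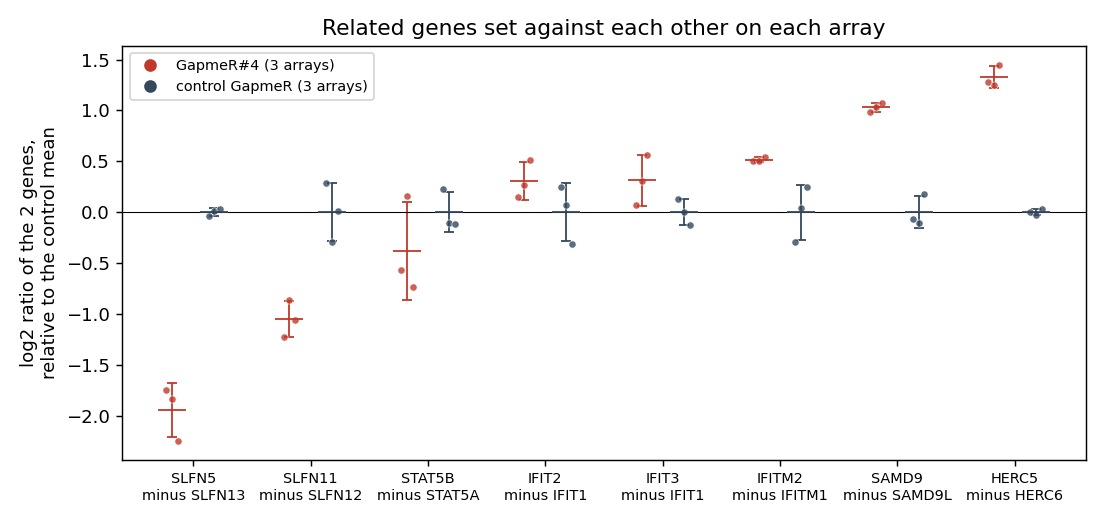
Log2 ratio of 2 related genes on each array, with the mean of the control arrays of each pair set to 0, for 8 pairs, GapmeR#4 left of control GapmeR, with mean and SD of 3 arrays. The groups are apart for 5 pairs and overlap for STAT5B minus STAT5A, IFIT2 minus IFIT1 and IFIT3 minus IFIT1.

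Set beside the sequences, the 19 members with an ISRE core had 3 called genes, all higher (HERC5, IFIT3 and SAMD9), and 16 not called. Their changes ranged from -0.46 to 1.26 with a median of 0.16, and 11 of 19 were positive. The 20 members with a window and no match had a median of -0.12, with 7 of 20 positive and STAT5B, lower, as the called gene. Of all named genes, 1.49% were called higher and 2.56% lower. Whether a match goes with the direction of change was not tested. The number of matches did not order the changes of the genes printed above, since ISG15 and IFIT1 have as many as IFIT3 and did not pass. The 10 members with the GAS letters held no called gene by limma, and their changes ranged from -0.53 to 0.27. SLFN5, IFITM2 and IFIT2 are called members without a window in the table used here.

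**Figure D4:**
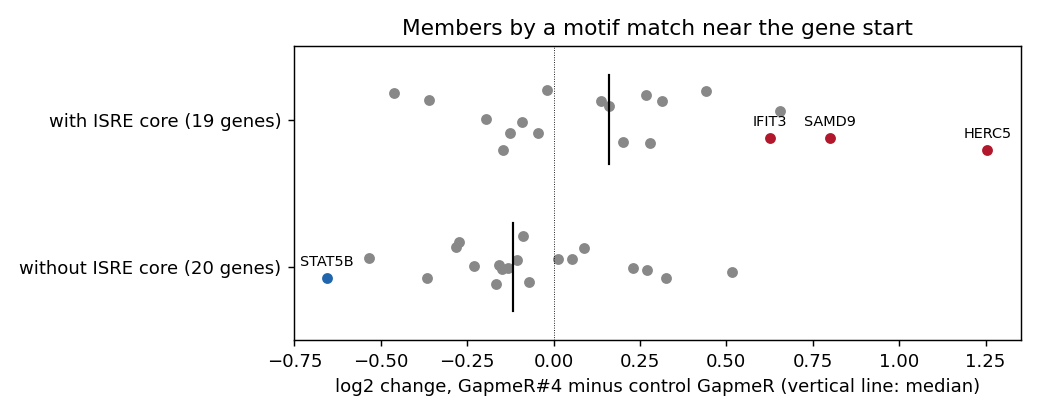
Log2 change (GapmeR#4 minus control GapmeR) of the 39 members with a RefSeq window, split by a match to the ISRE core within 250 bases before to 50 bases after the start, with the median of each set as a vertical line. The medians are 0.16 for 19 genes with a match and -0.12 for 20 without, and both sets cross 0.

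The rest of the pathway was read from lists of ligands, receptors, regulators, sensors and further targets. None of the 21 interferon ligands had a named transcript cluster in the annotation used here. Of the receptors and JAK kinases, 6 of 10 were measured, IFNAR1 and IFNAR2 not among them, and none was called by limma or had an unadjusted p under 0.05. TYK2 gave 6.47, 6.44 and 6.53 on the GapmeR#4 arrays, against 6.70, 6.64 and 6.61 on the control arrays (-0.17, adjusted p = 0.432), and JAK2 gave 6.58, 6.39 and 6.02 on the GapmeR#4 arrays, against 6.37, 6.55 and 6.64 on the control arrays (-0.19, adjusted p = 0.631). Only the TYK2 groups were apart. JAK1 was bright and changed by 0.04, with a 95% interval of -0.21 to 0.28.

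Of the negative regulators of JAK-STAT signals, 9 of 17 were measured, 1 was called higher and the median change was 0.28. Of all named genes, 1.49% were called higher. An unadjusted p under 0.05 (limma) was found for 6 of the 9, beside 23.1% of named genes. SOCS2, SOCS4, SOCS5, SOCS6 and SOCS7 were the higher ones and USP18 the lower. SOCS2, best known for restraining growth hormone receptor signals, gave 5.26, 5.03 and 5.47 on the GapmeR#4 arrays, against 4.61, 4.35 and 4.05 on the control arrays (0.91 ± 0.18, 1.88-fold, adjusted p = 0.0486). SOCS6 gave 8.06, 8.01 and 8.02 on the GapmeR#4 arrays, against 7.19, 7.50 and 7.64 on the control arrays (0.58 ± 0.13, adjusted p = 0.0769). The groups were apart for both genes, and SOCS2 did not pass in any fit that left out 1 array. SOCS1 and SOCS3, which interferon signals induce, changed by 0.14 and 0.08 and did not pass.

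Among the nucleic acid sensors and adaptors, 18 of 23 were measured and 1 was called lower, beside 2.56% of named genes. At an unadjusted p under 0.05 (limma) there were 5, beside 23.1% of named genes. TRAF3, MAVS, TLR3 and STING1 were the lower ones and MYD88 the higher. TRAF3, an adaptor between MAVS and the kinase TBK1, gave 6.02, 5.58 and 5.96 on the GapmeR#4 arrays, against 6.50, 6.66 and 6.78 on the control arrays (-0.79 ± 0.15, adjusted p = 0.0444). MAVS, the mitochondrial adaptor of the RNA sensors, gave 6.45, 6.50 and 6.04 on the GapmeR#4 arrays, against 7.25, 7.18 and 6.92 on the control arrays. Its difference had the same size, -0.79 ± 0.16, with groups apart and an adjusted p of 0.0536. The sensor RIGI changed by 0.18 with overlapping groups, and the median of the list was -0.01. TRAF3 did not pass in any fit with 1 array fewer.

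In class I antigen presentation, 6 of 21 genes were measured and 1 was called lower, beside 2.56% of named genes. The HLA genes of the list, TAP1 and TAP2 were not among those measured. At an unadjusted p under 0.05 (limma) there were 3, ERAP1, TAPBP and CALR, each lower, beside 23.1% of named genes. ERAP1, which trims peptides for class I molecules, gave 6.48, 6.47 and 6.34 on the GapmeR#4 arrays, against 6.89, 7.05 and 6.98 on the control arrays (-0.54 ± 0.10, adjusted p = 0.0447). TAPBP (tapasin), which helps to load them, gave 7.88, 8.15 and 8.18 on the GapmeR#4 arrays, against 8.55, 8.40 and 8.34 on the control arrays. The groups were apart, but the change of -0.36 did not pass (adjusted p = 0.199). B2M, the light chain of class I molecules, changed by 0.08 with a 95% interval of -0.15 to 0.30. ERAP1 was likewise lost whichever array was left out.

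Of 59 other interferon-stimulated genes, 32 were measured, 2 were higher and 0 lower by limma, and the median was -0.04. Both called genes code for chemokines that attract T cells through CXCR3. CXCL11 gave 5.09, 4.80 and 4.79 on the GapmeR#4 arrays, against 3.69, 3.38 and 3.31 on the control arrays (1.43 ± 0.14, 2.70-fold, adjusted p = 0.00923). CXCL9 gave 4.62, 4.42 and 4.51 on the GapmeR#4 arrays, against 2.06, 2.91 and 3.22 on the control arrays (1.78 ± 0.28, 3.44-fold, adjusted p = 0.027). The control arrays lay below the median of the arrays for both genes, and those of CXCL9 were spread over more than 1 log2 unit. Leaving out 1 array lost the call of CXCL9 in 4 of 6 fits and that of CXCL11 in 1, without control GapmeR replicate 2 (adjusted p = 0.0559). By the methods' t-test neither passed (adjusted p = 0.148 for CXCL9 and 0.0729 for CXCL11). CXCL10, the third chemokine of this group, changed by 0.05 and did not pass. At an unadjusted p under 0.05 (limma) there were 15 of the 32, more of them lower than higher. The lower ones were TRIM22 and TRIM5 (-0.61 and -0.40), PML, RBCK1, RTP4, SHFL, UBA7, UBE2L6, USP18 and WARS1. The higher ones were the 2 called chemokines, SP110 and PNPT1 (0.37 and 0.35) and NUB1. Of all named genes, 23.1% had such a p, and 1.49% were called higher.

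**Figure D5:**
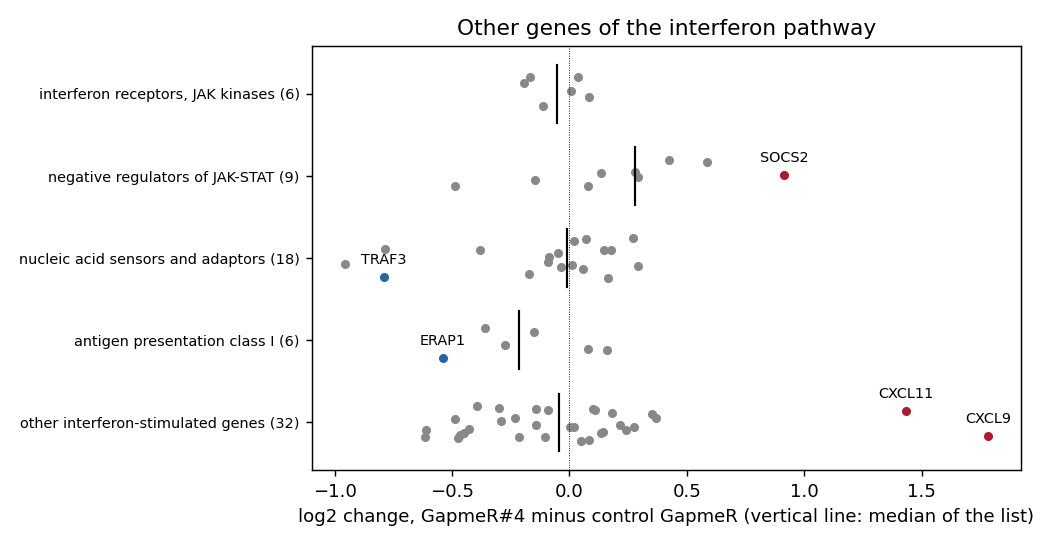
Log2 change (GapmeR#4 minus control GapmeR) of the measured genes of 5 pathway lists, one point per gene with the median of the list as a vertical line, blue and red for adjusted p under 0.05 and the number of measured genes in brackets. The called genes are SOCS2, TRAF3, ERAP1, CXCL11 and CXCL9, and the medians lie between -0.21 and 0.28.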

How the data were processed

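RNA of 6 samples of MDA-MB-468 cells was hybridised to 6 Affymetrix arrays. The values deposited by the authors are log2 signals, 1 per transcript cluster and array, made with Expression Console per the labels. The version and normalization, not given in the sources used here, are unknown, and the signals were not normalized again. Of 53617 transcript clusters, 16098 had 1 gene symbol in the platform annotation and 37519 were unnamed here. GapmeR#4 and control GapmeR samples were compared with limma 3.58.1 in R 4.3.3, 2-sided, without a filter and with Benjamini-Hochberg adjustment over all transcript clusters. The number of arrays limits the precision.

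Members and lists were chosen with earlier results of these data known. Per-array values are given for called members, the 10 next by p, the 5 brightest, core genes of the pathway and, in each list, called genes and the 2 with the smallest p; all other genes named were chosen after their values were seen. Pairs of genes were tested by exact permutation. Promoter windows were searched on both strands. Alternatives were the brighter 50% of transcript clusters, an intensity trend with a robust prior, the methods' t-test, quantile normalization, centring, array weights, the replicate number as a block, leaving out each array, averaging all transcript clusters of a gene, leaving out the IRF2-binding proteins and, added after seeing the data, adjustment over named genes.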

Additional observations from a re-analysis of the deposited data

How the results depend on the processing

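With 3 arrays a group, the adjusted calls depend on the test. The brighter 50% of transcript clusters, the intensity trend, the methods' t-test and the replicate block leave the changes themselves as they are. For the 7 called members, whose groups do not overlap, leaving out or weighting arrays cannot reverse the sign. That all 7 kept their sign in the 13 alternatives that refit the model was therefore mostly fixed in advance. Quantile normalization and centring called the same 7. With the brighter 50% of transcript clusters, the calls were 1466 lower and 1282 higher over all, against 760 and 614, and 4 lower and 9 higher among 42 members (median -0.0686), the new ones being IFIH1, IFITM3, IFITM4P, IRF2, SLFN11 and SLFN12. The lists then held 2 negative regulators, 2 sensors and 4 other interferon-stimulated genes. An intensity trend with a robust prior gave 1273 lower and 1176 higher over all and 4 lower and 8 higher among members, and 2 negative regulators, 2 sensors, 2 class I genes and 4 other interferon-stimulated genes. Array weights added IFITM3 to the members and made the sensors 2. The methods' t-test with Benjamini-Hochberg adjustment called 4 lower and 8 higher over all, 0 lower and 0 higher members and 0 genes of each list, and limma gave an unadjusted p under 0.05 for 19 of 53 members (35.8%), beside 23.1% of named genes. Adjusted over the named genes, 3 members were lower and 7 higher. The mean over transcript clusters and leaving out the IRF2-binding proteins kept the counts at 2 lower and 5 higher.

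The labels give both groups replicate numbers 1 to 3, and samples of the same number did not deviate together (correlations of -0.06, -0.005 and -0.02, with 0 arrays closest to their own number), so the numbers were not taken as pairs. With the replicate number as a block, 35 lower and 55 higher transcript clusters were called over all, 1 lower member (SLFN5, adjusted p = 0.0441), 0 higher members (HERC5, adjusted p = 0.0511), 0 negative regulators, sensors and class I genes and 1 other interferon-stimulated gene, CXCL11.

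Leaving out 1 array in turn left 23 to 236 lower and 44 to 269 higher calls over all, 1 lower member in each case and 0 to 2 higher members, with a median of -0.0314 to 0.0085, 0 negative regulators, sensors and class I genes and 0 to 2 other interferon-stimulated genes. SLFN5 remained called in 6 of 6 such fits (adjusted p = 0.0276 to 0.0441) and HERC5 in 5 of 6, not without control GapmeR replicate 2 (0.0529). IFITM2 remained called only without GapmeR#4 replicate 1 (adjusted p = 0.0407 to 0.0914 over the fits) and SAMD9 only without control GapmeR replicate 3 (0.0486 to 0.135). CXCL11 remained in 5 of 6, not without control GapmeR replicate 2 (0.0349 to 0.0559), and CXCL9 in 2 of 6, without control GapmeR replicate 1 or 3 (0.0384 to 0.0979). No such fit called IFIT2 (0.0771 to 0.114), IFIT3 (0.0679 to 0.113), STAT5B (0.0715 to 0.141), SOCS2 (0.0744 to 0.155), TRAF3 (0.0849 to 0.151) or ERAP1 (0.0974 to 0.168). NRAD1 ranged from -0.79 to -0.50. The change of IRF7 ranged from -0.229 to 0.0267, the positive value being that without control GapmeR replicate 1. The cause of these shifts was not tested, and each such fit has 1 array fewer.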

Other observations

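IFITM4P had 6 named transcript clusters, of which 2 pairs hold identical values on all arrays. The 5 that were not used changed by 0.50 to 0.52 and none passed. IRF2BP2 had a second transcript cluster with a change of -0.02, against 0.23 for the brighter one that was used.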
